A study of Mus musculus with 12 samples.

Results

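The activator protein 1 (AP-1) and early growth response (EGR) factors described here are 10 genes, namely Fos, Fosb, Fosl2, Jun, Junb, Jund, Atf3, Maff, Egr1 and Egr2. They were found by matching the Ensembl identifiers of the count tables to these mouse symbols, and are 10 of the 55335 genes listed. Neutrophils were sorted as CD45+ CD11b+ Ly6G+ F4/80- cells from 3 groups of mice on the FVB background, aged 10 weeks and kept in SOPF (specific and opportunistic pathogen free) housing, with 4 libraries per group. PyMT TANs (tumor associated neutrophils) came from the mammary tumors of mice carrying the polyoma middle T (PyMT) transgene, which drives tumors of the mammary gland. PyMT-Cxcr2-/- TANs came from tumors of mice that carry the same transgene and lack the chemokine receptor Cxcr2 in the whole animal, not in neutrophils alone. WT BM neutrophils came from the bone marrow of mice with neither the transgene nor the deletion, so tissue and PyMT genotype change together in any comparison with this group. When PyMT-Cxcr2-/- TANs are compared with it, the Cxcr2 genotype changes as well. The tumors were minced and digested with enzymes while bone marrow was obtained by centrifugation, so the digestion and the tissue cannot be told apart either. The labels give each library as a separate replicate of its group and p-values measure the spread between these libraries.

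AP-1 is a dimer of basic leucine zipper proteins, usually a Fos family partner with a Jun family partner, that binds a short palindromic element in promoters and enhancers. Fos, Fosb, Jun, Junb, Atf3, Egr1 and Egr2 belong to the immediate early genes, whose transcription starts within minutes of growth factor, cytokine or stress signals and needs no new protein synthesis. In myeloid cells these factors sit downstream of the MAP kinases and take part in inflammatory gene expression, adhesion and survival, and the same genes are known to respond to tissue dissociation with enzymes.

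RNA-seq reads were counted per gene, with 25032704 to 51351569 counts on genes per library. A level of 3 counts, the smallest taken here as shown by the depth, was 0.0584 to 0.12 CPM (counts scaled to the library total). This limit covers counting error alone. Cxcr2 checked the labels, averaging 2030 CPM in WT BM neutrophils and 1190 CPM in PyMT TANs, against 9.48 CPM in PyMT-Cxcr2-/- TANs. PyMT TAN replicate 3 lay farther from its group (a mean Euclidean distance of 258 on log2 CPM) than the other 3 libraries did (191 to 207). No pair of replicates of one group agreed within sampling noise (chi-square of 24.9 to 150 per degree of freedom). Levels of single genes are CPM scaled with TMM factors (trimmed mean of M values) over the 12 libraries, and levels compared between genes are CPM per kb of exon. A gene was called where edgeR's quasi-likelihood test gave a Benjamini-Hochberg adjusted p under 0.05 over all genes tested and the fold change was 1.5 or more.

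Promoter sequence is shown for Fos, Jun, Junb and Maff, because Junb, Fos and Jun are the core AP-1 partners and Maff had the largest fold difference between TANs and bone marrow neutrophils among the 10 genes. Each line gives the 150 bases before a RefSeq start site in GRCm38.p6, 5′ to 3′ on the strand of the gene, in lower case with the motif matches described next in capitals.
Fos, chr12:85473740-85473889, plus strand: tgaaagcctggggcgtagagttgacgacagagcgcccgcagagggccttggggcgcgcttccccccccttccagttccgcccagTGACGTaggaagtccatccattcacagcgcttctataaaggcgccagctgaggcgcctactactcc
Jun, chr4:95052223-95052372, minus strand: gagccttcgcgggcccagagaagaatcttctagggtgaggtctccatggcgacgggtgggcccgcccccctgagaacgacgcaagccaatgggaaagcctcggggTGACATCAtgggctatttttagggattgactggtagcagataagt
Junb, chr8:84978749-84978898, minus strand: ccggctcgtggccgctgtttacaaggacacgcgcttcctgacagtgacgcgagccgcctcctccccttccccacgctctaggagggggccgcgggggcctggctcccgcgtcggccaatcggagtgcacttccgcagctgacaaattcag
Maff, chr15:79347370-79347519, plus strand: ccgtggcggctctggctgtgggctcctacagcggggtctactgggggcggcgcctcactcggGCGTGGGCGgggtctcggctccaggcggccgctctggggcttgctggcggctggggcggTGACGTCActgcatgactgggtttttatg

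None of these 4 windows held an annotated exon base in GENCODE M21. The Maff window belongs to one of 3 RefSeq starts of the gene and lies inside the annotated gene, outside its exons. Motifs were searched on both strands of the 250 bases before each start. The core of the cAMP response element, TGACGT, stood 66 bases before the start of Fos and was held by 6.47% of 32851 promoters. Promoters of Atf3, Maff and Egr2 also held this core. The full element TGACGTCA, which contains that core, stood 29 bases before the Maff start and was held by 1.55%. The element TGACATCA stood 45 bases before the start of Jun and was held by 2.93%. It also stood 45 bases before another Maff start, whose window is not shown. An EGR element, GCGNGGGCG, stood 88 bases before the Maff start and was held by 4.7%, Fosb and Fosl2 included. The canonical AP-1 element TGANTCA was held by 6.75% of promoters and by none of the 9 members with a promoter entry. These matches describe letters in a window and are not measured binding sites.

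Between PyMT TANs and WT BM neutrophils, 8 of the 10 genes passed the count filter and were tested, and 7 of these were higher in PyMT TANs and 0 lower, where 30.1% of all 17153 genes tested were called higher and 23.2% lower. These 7 genes were also those whose groups did not overlap, which held in this direction for 28.4% of genes. Of the 8 members tested in PyMT-Cxcr2-/- TANs, 8 were higher than in WT BM neutrophils and did not overlap them, where 34.4% of 17732 genes were called higher, 25.1% lower, and 32.5% were higher without overlap. Fosb, Atf3 and Maff, all at 107 CPM or less in each bone marrow library, had the largest differences, between 11.4-fold and 22.4-fold. The median log2 fold change of the 8 tested members was 2.47 in both comparisons, and the median over all genes tested was 0.09 in both. Both comparisons share the same 4 bone marrow libraries. Between PyMT-Cxcr2-/- TANs and PyMT TANs, 0 of 8 members were called in either direction, where 1.98% of 18463 genes were called.

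**Figure D1:**
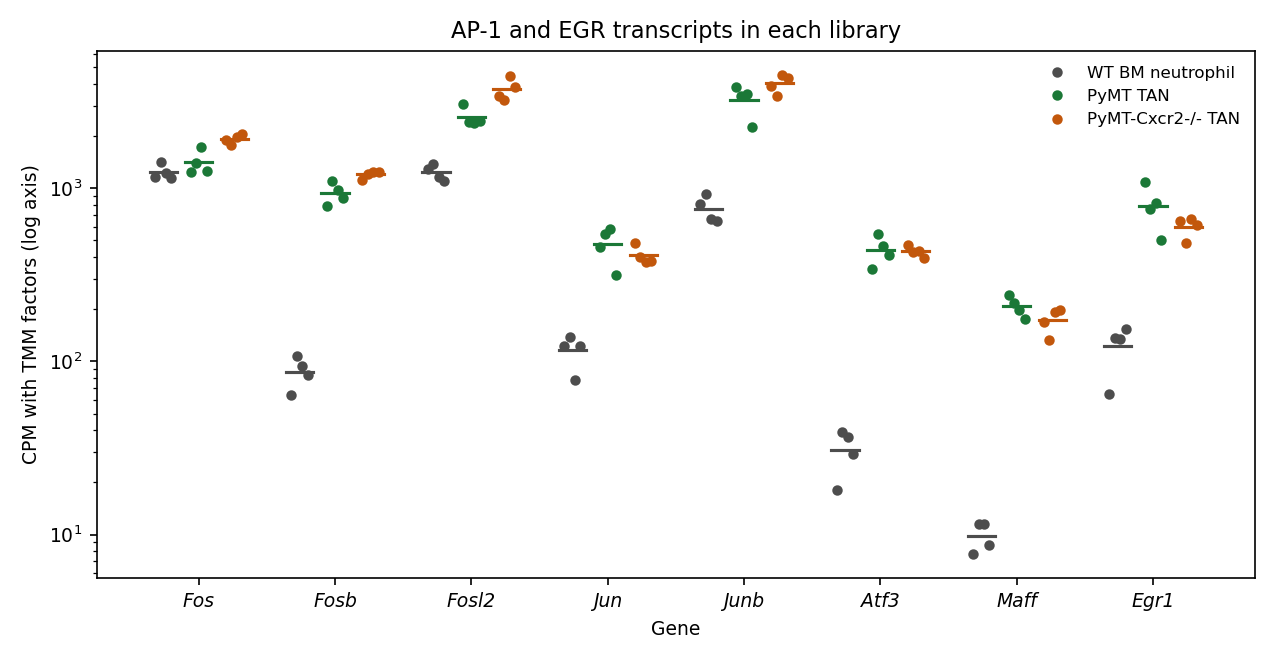
CPM with TMM factors (log axis) of the 8 tested genes in each of the 12 libraries, with points for libraries and bars for group means. Maff lies between 7.73 and 11.5 CPM in the WT BM neutrophils and between 133 and 243 CPM in the TANs, while the Fos values of WT BM neutrophils (1143 to 1415 CPM) overlap those of PyMT TANs (1239 to 1736 CPM).

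Fos (ENSMUSG00000021250, chr12:85473890-85477273 in mm10), the founding Fos family partner of AP-1, was abundant in every group. In PyMT TANs, Fos was at 1239, 1404, 1736 and 1265 CPM in replicates 1 to 4. In PyMT-Cxcr2-/- TANs it was at 1914, 1782, 1989 and 2065 CPM. In WT BM neutrophils it was at 1167, 1415, 1230 and 1143 CPM. With TMM factors PyMT TANs overlapped WT BM neutrophils, while the 4 PyMT-Cxcr2-/- libraries were above all others. Both statements depend on the scaling. From library totals alone, PyMT TANs (1353 to 2086 CPM) did not overlap WT BM neutrophils (879 to 1174 CPM). On that scale PyMT TAN replicate 3 was the highest of the 12 libraries, above the PyMT-Cxcr2-/- TANs (1931 to 2040 CPM). The log2 difference between PyMT TANs and WT BM neutrophils was 0.27 ± 0.15 (SE, n = 4 per group, 95% interval -0.05 to 0.60, adjusted p = 0.14 by edgeR) and did not pass the test. PyMT-Cxcr2-/- TANs were 1.70-fold higher than WT BM neutrophils (log2 0.76 ± 0.12, adjusted p = 5.6e-05). With offsets for GC content and gene length this value was 0.27 (adjusted p = 0.11) and the call was lost.

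Fosb (ENSMUSG00000003545, chr7:19302696-19310051), a Fos family partner that is usually low in resting cells, was among the tested members that differed most between the tissues. Its level was 788, 1102, 984 and 882 CPM in PyMT TANs. It was 1112, 1214, 1236 and 1249 CPM in PyMT-Cxcr2-/- TANs. It was 64.3, 107, 93.7 and 83.0 CPM in WT BM neutrophils. Every TAN library was several times above every bone marrow library. Fosb was 11.4-fold higher in PyMT TANs (log2 3.52 ± 0.19, adjusted p = 1.1e-07) and 15-fold higher in PyMT-Cxcr2-/- TANs (log2 3.91 ± 0.16, adjusted p = 6.4e-10).

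Fosl2 (ENSMUSG00000029135, chr5:32135801-32157842), also called Fra-2, is a Fos family member that lacks the transactivation domain of Fos. It was measured at 3075, 2424, 2388 and 2453 CPM in PyMT TANs. In PyMT-Cxcr2-/- TANs the values were 3410, 3235, 4483 and 3866 CPM. In WT BM neutrophils they were 1291, 1383, 1160 and 1110 CPM. The groups did not overlap and stood in the order WT BM neutrophils, PyMT TANs, PyMT-Cxcr2-/- TANs. PyMT TANs were 2.21-fold above WT BM neutrophils (log2 1.14 ± 0.13, adjusted p = 2.1e-05) and PyMT-Cxcr2-/- TANs 3.29-fold (log2 1.72 ± 0.14, adjusted p = 2.1e-07). With the GC and length offsets the first value was 0.55, below the fold limit, and the second was 0.89 and still called.

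Per kb of exon, Fos made up the largest share of the Fos family (Fos, Fosb, Fosl1 and Fosl2) in every library. Its share was 77.2% to 78.9% in WT BM neutrophils, 54.1% to 64.4% in PyMT TANs and 55.8% to 60.3% in PyMT-Cxcr2-/- TANs. The share of Fosb was 1.60% to 2.26% in WT BM neutrophils, 13% to 17.2% in PyMT TANs and 13.1% to 15% in PyMT-Cxcr2-/- TANs. For both genes the bone marrow libraries did not overlap the TAN libraries, and the TAN groups overlapped each other. Fosl2 held 18.1% to 20.8%, 21.5% to 32.6% and 25.8% to 30.6% in the same order. Without the division by length, Fosl2 and not Fos held the largest mean share in TANs, 52.3% in PyMT TANs against 28.5% for Fos, and both held about equal shares in WT BM neutrophils (48.1% and 48.2%).

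**Figure D2:**
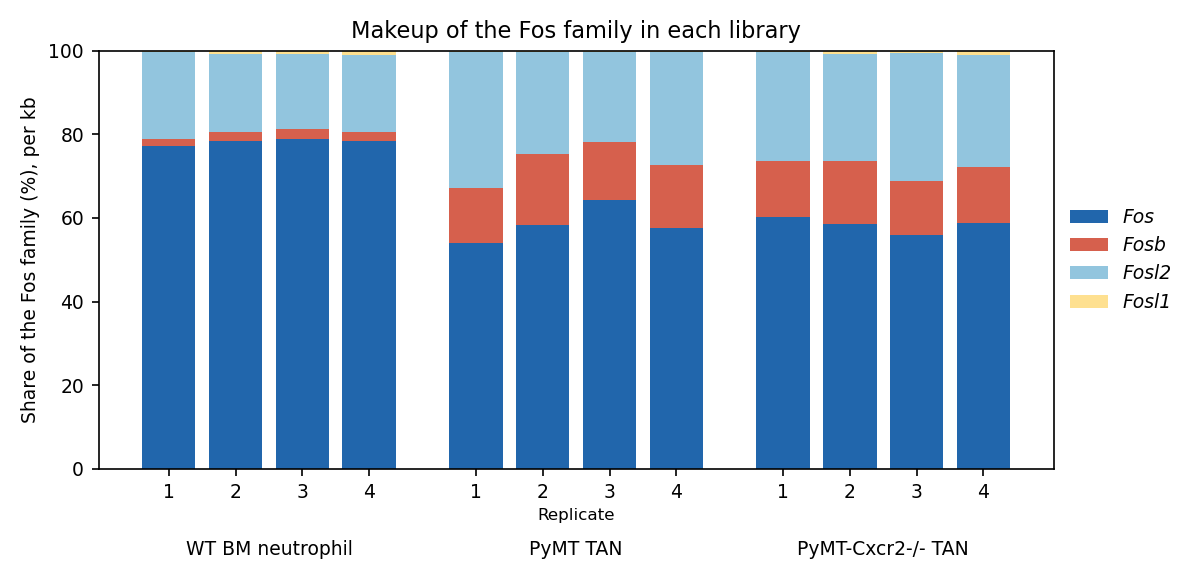
Share of each Fos family gene in the family total (percent of CPM per kb of exon, stacked bars) in each of the 12 libraries. Fosb takes at most 2.26% of the total in the WT BM neutrophils and at least 13% in the TANs.

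Jun (ENSMUSG00000052684, chr4:95049034-95052222), the Jun family partner with the strongest transactivation, was higher in TANs. In PyMT TANs it was at 456, 548, 586 and 316 CPM. In PyMT-Cxcr2-/- TANs it was at 485, 404, 374 and 380 CPM. In WT BM neutrophils it was at 123, 139, 77.9 and 124 CPM. All TAN libraries were above all bone marrow libraries, and the PyMT-Cxcr2-/- values lay inside the range of the PyMT TANs, whose replicate 4 was the lowest of the 8. Jun was 4.36-fold higher in PyMT TANs (log2 2.12 ± 0.23, adjusted p = 1.3e-05) and 3.85-fold higher in PyMT-Cxcr2-/- TANs (log2 1.95 ± 0.16, adjusted p = 2.9e-07) than in WT BM neutrophils.

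Junb (ENSMUSG00000052837, chr8:84974484-84978718), a Jun family partner required for the normal control of the myeloid lineage, was among the most abundant transcripts of TANs. Its values were 3858, 3403, 3496 and 2270 CPM in PyMT TANs. They were 3890, 3422, 4536 and 4335 CPM in PyMT-Cxcr2-/- TANs. They were 808, 931, 670 and 650 CPM in WT BM neutrophils. Each TAN library was above each bone marrow library, and the TAN groups overlapped. Junb was 4.50-fold higher in PyMT TANs (log2 2.17 ± 0.19, adjusted p = 2.7e-06) and 5.75-fold higher in PyMT-Cxcr2-/- TANs (log2 2.52 ± 0.15, adjusted p = 1.8e-08). Per kb of exon it ranked 14 of 33473 genes with counts in both TAN groups and 126 in WT BM neutrophils, and it made up 87.9% to 94.4% of the Jun family in all 12 libraries, a share that takes the low counts of Jund (2 to 13 per library) as deposited.

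Jund (ENSMUSG00000071076, chr8:70698949-70700616), the Jun family member usually expressed constitutively, was at the limit of detection. It had 11, 6, 13 and 5 counts in PyMT TANs. It had 6, 11, 5 and 4 counts in PyMT-Cxcr2-/- TANs. It had 2, 3, 2 and 3 counts in WT BM neutrophils. These counts were too low for the filter and Jund was not tested. Of the 1668 exon bases of Jund in GENCODE M21, 877 (52.6%) are shared with exons of Gm11175 on the opposite strand, and Gm11175 had 0 counts in all 12 libraries. Of 439 genes that lie wholly under exons of the opposite strand, 435 (99.1%) had 0 counts in the 12 libraries, against 39.4% of all genes listed. The part that the counting of overlapping genes plays in the Jund values was not tested. Jun shares 7.28% and Junb 7.52% of their exon bases with genes of the opposite strand, and the strand setting of the counting is not given in the sources used here.

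Atf3 (ENSMUSG00000026628, chr1:191170296-191218039), a stress-induced factor of the ATF/CREB family that can pair with Jun proteins, was low in bone marrow neutrophils and high in TANs. In PyMT TANs its level was 343, 547, 463 and 413 CPM. For PyMT-Cxcr2-/- TANs it was 472, 430, 435 and 395 CPM. In WT BM neutrophils it was 18.1, 39.3, 36.6 and 29.1 CPM. Every TAN library was above every bone marrow library, and the PyMT-Cxcr2-/- values lay within the range of the PyMT TANs. Atf3 was 15.2-fold higher in PyMT TANs (log2 3.93 ± 0.26, adjusted p = 4.1e-07) and 15.3-fold higher in PyMT-Cxcr2-/- TANs (log2 3.93 ± 0.21, adjusted p = 9.0e-09) than in WT BM neutrophils.

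Maff (ENSMUSG00000042622, chr15:79346621-79359076), a small Maf protein that has a leucine zipper but no transactivation domain, had the largest difference of the 8 tested members in both comparisons with bone marrow. The PyMT TAN libraries held 243, 217, 199 and 176 CPM. The PyMT-Cxcr2-/- TAN libraries held 170, 133, 192 and 198 CPM. The WT BM neutrophil libraries held 7.73, 11.5, 11.5 and 8.66 CPM. TANs and bone marrow neutrophils did not overlap, while the TAN groups did with TMM factors. Maff was 22.4-fold higher in PyMT TANs (log2 4.48 ± 0.18, adjusted p = 2.6e-08), a difference at or above that of 94.3% of genes tested. The difference in PyMT-Cxcr2-/- TANs was 19.1-fold (log2 4.25 ± 0.17, adjusted p = 5.9e-10), at or above 92.7% of genes tested.

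Egr1 (ENSMUSG00000038418, chromosome 18), a zinc finger factor induced by MAP kinase signals, was higher in TANs and varied more among PyMT TANs than the other tested members. Its level was 1087, 757, 827 and 502 CPM in PyMT TANs. It was 648, 483, 665 and 612 CPM in PyMT-Cxcr2-/- TANs. It was 64.7, 136, 135 and 154 CPM in WT BM neutrophils. All 8 TAN libraries were above all bone marrow libraries. Egr1 was 6.83-fold higher in PyMT TANs (log2 2.77 ± 0.29, adjusted p = 1.1e-05) and 5.33-fold higher in PyMT-Cxcr2-/- TANs (log2 2.41 ± 0.23, adjusted p = 1.4e-06). Egr2 (ENSMUSG00000037868, chr10:67535475-67542188), its paralog with roles in myelination and in T cells and macrophages, had 0 counts in all 12 libraries, which allows a level of up to 0.0584 to 0.12 CPM per library. Egr2 shares no exon base with another gene in GENCODE M21.

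Ranked per kb of exon, the order of the members in PyMT TANs was Junb (rank 14 of 33473 genes), Fos (39), Fosl2 (101), Atf3 (145), Egr1 (168), Fosb (205), Jun (208) and Maff (434). In WT BM neutrophils it was Fos (65), Junb (126), Fosl2 (358), Jun (1352), Egr1 (1746), Atf3 (3049), Fosb (3113) and Maff (6814). Fos was therefore the most abundant of these transcripts in bone marrow neutrophils (527 ± 52.3 CPM per kb, SD, n = 4, against 332 ± 57.1 for Junb), and Junb in PyMT TANs (1420 ± 298 against 600 ± 97.2 CPM per kb for Fos). The order in PyMT-Cxcr2-/- TANs was Junb (14), Fos (37), Fosl2 (81), Atf3 (188), Fosb (198), Egr1 (291), Jun (303) and Maff (606). In PyMT TANs the ranges of neighbours overlapped from Fosl2 (247 to 318 CPM per kb) through Atf3, Egr1 and Fosb to Jun (99.1 to 184). In PyMT-Cxcr2-/- TANs they overlapped for Atf3 and Fosb (178 to 200) and for Egr1 and Jun (117 to 152). In WT BM neutrophils they overlapped from Jun (24.4 to 43.6) through Egr1 and Atf3 to Fosb (10.3 to 17.2), while Maff (2.98 to 4.44) lay below all other tested members.

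**Figure D3:**
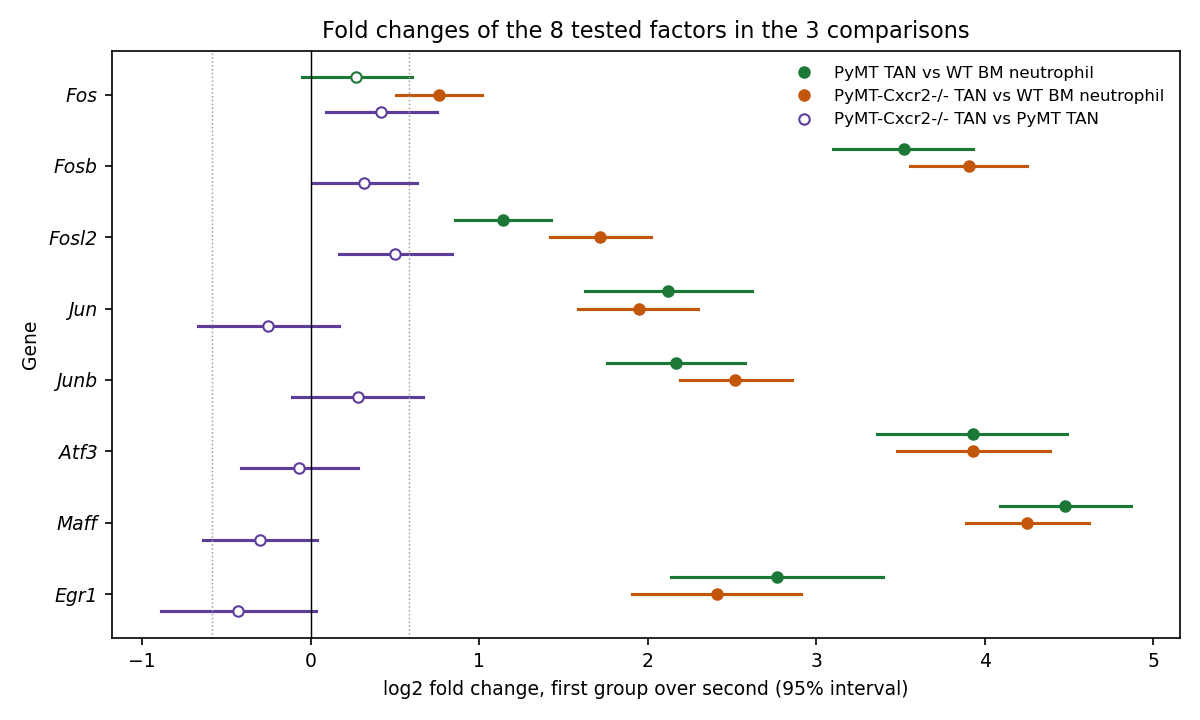
Log2 fold change of the 8 tested genes in the 3 comparisons, with 95% intervals, filled where the gene was called and open where it was not, and dotted lines at 1.5-fold. The intervals of Maff start at 4.09 and 3.89 in the comparisons with WT BM neutrophils, and no gene is called between the TAN groups.

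The direct comparison is between TANs of tumor-bearing mice with and without Cxcr2. Since the whole animal lacks Cxcr2, effects within neutrophils and effects of the rest of the animal cannot be told apart. The log2 difference of Fos, PyMT-Cxcr2-/- TANs over PyMT TANs, was 0.42 ± 0.15 (95% interval 0.09 to 0.75, adjusted p = 0.19 by edgeR). Fosl2 was at 0.50 ± 0.15 (0.17 to 0.84, adjusted p = 0.12) and Fosb at 0.32 ± 0.14 (0.01 to 0.63, adjusted p = 0.31). For these 3 Fos family genes all 4 PyMT-Cxcr2-/- libraries were above all 4 PyMT TAN libraries and the unadjusted p was under 0.05, yet none passed the adjustment. Over all genes tested, 15.2% had an unadjusted p under 0.05 and 6.89% did not overlap in this direction. This separation depends on the TMM factors for 2 of the 3 genes. From library totals alone, Fos reached 2086 CPM in PyMT TANs, against 1931 to 2040 CPM in PyMT-Cxcr2-/- TANs. Fosb likewise reached 1338 CPM, against 1167 to 1324 CPM, so both overlapped. Fosl2 stayed apart (up to 3359 CPM, against 3529 CPM or more). DESeq2 gave adjusted p of 0.038 for Fos and 0.014 for Fosl2, and also called 0 members, since the fold changes were below 1.5. With 12 libraries in one edgeR fit, Fosl2 alone had an adjusted p under 0.05, and 0 members were called. Over all genes, DESeq2 called 693 higher and 294 lower of 18463, and the fit of 12 libraries called 579 and 307 of 19212. The other 5 tested members overlapped between the TAN groups, although from library totals alone Maff did not (219 CPM or more in PyMT TANs, at most 189 CPM in PyMT-Cxcr2-/- TANs). Their log2 differences were 0.28 for Junb (95% interval -0.11 to 0.67), -0.07 for Atf3 (-0.41 to 0.28), -0.25 for Jun (-0.67 to 0.17), -0.30 for Maff (-0.64 to 0.04) and -0.43 for Egr1 (-0.89 to 0.03), with adjusted p of 0.37 to 0.93. These intervals do not show that the groups are alike, and those of Fos, Fosl2, Junb, Fosb, Jun, Maff and Egr1 include changes of over 1.5-fold. The median log2 difference of the 8 members was 0.11, against -0.07 over all genes tested, and it was -0.09 without PyMT TAN replicate 4.

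The spread of the members differed between the groups. The coefficient of variation across 4 libraries was 12.7% (Fosl2) to 30.3% (Egr1) in PyMT TANs, 5.16% (Fosb) to 16.9% (Maff) in PyMT-Cxcr2-/- TANs and 9.93% (Fos) to 32.3% (Egr1) in WT BM neutrophils. PyMT TAN replicate 4 was the lowest of its group for Jun, Junb, Maff and Egr1. PyMT-Cxcr2-/- TAN replicate 2 was the lowest of its group for 5 of 8 members, and WT BM neutrophil replicate 2 was the highest of its group for 7 of 8. Leaving out any of the 8 libraries of a comparison left the number of members called at 7, 8 and 0 in the 3 comparisons.

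The other AP-1 related leucine zipper genes were 12 genes, all tested. Against WT BM neutrophils, 6 were higher and 1 lower in PyMT TANs, and PyMT-Cxcr2-/- TANs had 7 higher and 1 lower. Of all genes tested, 30.1% were called higher and 23.2% lower in PyMT TANs, and 34.4% and 25.1% in PyMT-Cxcr2-/- TANs. The same shares stand beside the counts of the lists that follow. Maf, a large Maf factor, rose by 3.55 and 3.51 on the log2 scale. Batf3, a partner of Jun proteins in dendritic cells and T cells, rose by 3.15 and 2.80 from 0.306 CPM in bone marrow. Batf2, its interferon-induced relative, was also called higher, at 1.30 and 1.33 CPM on average, and at 0.0622 CPM or less in each bone marrow library, which is near the level of 3 counts. Jdp2, a repressor of AP-1, was higher by 0.85 and 1.32, and Batf by 0.67 and 1.13. The call for Jdp2 in PyMT TANs was lost with the GC and length offsets, and that for Batf without PyMT TAN replicate 1. Mafg, a small Maf protein like Maff, moved the other way and fell by 2.29 and 1.78. The log2 values of the genes that were not called in either comparison were 0.26 and 0.23 for Atf2, -0.47 and -0.53 for Atf4, -0.49 and -0.16 for Atf7, and 0.28 and 0.54 for Mafk. With the offsets Atf4 (-0.83 and -1.16) and Atf7 (-1.13 and -1.02) were called lower in both comparisons.

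Fosl1 (Fra-1), the remaining Fos family gene, was the single one of these 12 genes called between the TAN groups. PyMT TANs held 5.31 ± 1.92 CPM on average (SD, n = 4), PyMT-Cxcr2-/- TANs held 16.8 ± 6.02 CPM and WT BM neutrophils held 9.25 ± 2.71 CPM. The log2 difference between PyMT-Cxcr2-/- TANs and PyMT TANs was 1.63 ± 0.32 (adjusted p = 0.027 by edgeR). This call was lost without PyMT TAN replicate 2 or 4 and without PyMT-Cxcr2-/- TAN replicate 2, 3 or 4, as well as with the offsets, while the value stayed between 1.40 and 1.91. Against WT BM neutrophils Fosl1 was at -0.72 ± 0.32 in PyMT TANs (adjusted p = 0.077) and 0.98 ± 0.27 in PyMT-Cxcr2-/- TANs (adjusted p = 0.0055). Under 6 of 19 alternatives it was called lower in PyMT TANs (values from -1.05 to -0.78), 2 of them without PyMT TAN replicate 3 or WT BM neutrophil replicate 1, and with the offsets the PyMT-Cxcr2-/- call was lost. Of its exon bases, 57.2% are shared with a gene of the opposite strand.

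Of the 4 EGR relatives and corepressors, 3 were tested and all 3 were higher in both TAN groups than in WT BM neutrophils. Egr3, which is also induced by MAP kinase signals, was higher by 4.16 in PyMT TANs and 3.80 in PyMT-Cxcr2-/- TANs on the log2 scale. Nab1 and Nab2, which bind EGR proteins and repress their targets, were higher by 1.19 and 2.01 in PyMT TANs and by 1.45 and 1.86 in PyMT-Cxcr2-/- TANs. Nab2 shares 42.2% of its exon bases with genes of the opposite strand. Egr4 had at most 37 counts in any library and was not tested. Between the TAN groups 0 of 3 were called by edgeR or by DESeq2, and 0 had an unadjusted p under 0.05.

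Among 21 other immediate early genes, 15 were higher and 1 lower in PyMT TANs than in WT BM neutrophils, and in PyMT-Cxcr2-/- TANs the counts were 17 and 0. Their median log2 differences were 3.19 and 3.43, against 0.09 over all genes tested in both. Nr4a1, an orphan nuclear receptor, was higher by 3.91 and 4.36, and Btg2, an antiproliferative gene, by 1.39 and 1.77. Zfp36, which destabilises cytokine mRNAs, was at 0.46 without a call in PyMT TANs and at 1 with a call in PyMT-Cxcr2-/- TANs, which was lost with the offsets. Ier2 fell by 0.69 in PyMT TANs, a call lost without PyMT TAN replicate 4, and was at -0.34 without a call in PyMT-Cxcr2-/- TANs. Between the TAN groups 0 of 21 were called by edgeR, with 4 at an unadjusted p under 0.05, and DESeq2 called 1, Nr4a2.

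The kinases and factors upstream of AP-1 and Egr1 were called in both directions. Of 20 genes, 3 were higher and 8 lower in PyMT TANs than in WT BM neutrophils, and in PyMT-Cxcr2-/- TANs the counts were 3 and 5. Elk1, a ternary complex factor that takes MAP kinase signals to the Fos and Egr1 promoters, fell by 1.58 and 0.75. Srf, its partner, was at -0.37 and 0.17, Elk3 at 0.44 and 0.08 and Elk4 at 0.01 and 0.12, without a call, although with the offsets Srf was called lower in PyMT TANs (-0.83, adjusted p = 0.00093 by edgeR). Mapk3 (Erk1) fell by 2.10 and 1.19 against WT BM neutrophils. It was the single gene of this list called between the TAN groups, by 0.84 ± 0.16 (adjusted p = 0.025), a call lost without PyMT TAN replicate 2, without PyMT-Cxcr2-/- TAN replicate 3 or 4 and with the offsets. DESeq2 called 3 genes of this list between the TAN groups, and 10 of 20 had an unadjusted p under 0.05 by edgeR. Mapk3 here, and Icam1 among the target genes, were picked out after their values were seen.

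Of 16 textbook AP-1 and EGR target genes, 14 were tested in PyMT TANs against WT BM neutrophils, with 9 higher and 3 lower, and 15 in PyMT-Cxcr2-/- TANs, with 9 and 2. Their summed level was nevertheless lower in TANs. It was 11500 to 13700 CPM in WT BM neutrophils, 5590 to 7660 CPM in PyMT TANs and 7590 to 9460 CPM in PyMT-Cxcr2-/- TANs. Mmp9, picked out after its values were seen, averaged 6620 CPM in WT BM neutrophils, against 934 and 2150 CPM in the TAN groups. Ptgs2, which encodes the inducible cyclooxygenase, was higher by 3.65 and 3.71, and Plau, the urokinase activator, by 1.45 and 1.75. Plaur, the urokinase receptor, fell by 0.81 in PyMT TANs and was at -0.07 without a call in PyMT-Cxcr2-/- TANs, where it was called lower with the offsets (-0.62). Tnf was higher by 1.81 and 0.62, and the call of the second value was lost without PyMT-Cxcr2-/- TAN replicate 4 or WT BM neutrophil replicate 2, with 12 libraries in one fit and with the offsets. Between the TAN groups edgeR called 2 of 16, both lower without Cxcr2, and 7 had an unadjusted p under 0.05. DESeq2 called 7, of which Tnf, Icam1 and Hbegf were lower and Plaur, Mmp9, Thbs1 and F3 higher without Cxcr2, and over all 18463 genes tested it called 693 higher and 294 lower. Tnf, an inflammatory cytokine, fell by 1.25 on the log2 scale (SE 0.24, adjusted p = 0.026), from 153 to 66.0 CPM on average. Icam1, an adhesion molecule, fell by 0.97 (SE 0.19, adjusted p = 0.025), from 256 to 135 CPM. The Tnf call was lost without PyMT TAN replicate 2 and without PyMT-Cxcr2-/- TAN replicate 1, 2 or 3, and also with the offsets. The Icam1 call was lost with the offsets, without PyMT TAN replicate 2, 3 or 4 and without PyMT-Cxcr2-/- TAN replicate 1, 3 or 4.

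Heat shock genes, which like the members can respond to tissue handling, were higher in both TAN groups. Of 11 genes, 9 were higher and 0 lower in each comparison with WT BM neutrophils. Between the TAN groups 0 of 11 were called by edgeR or DESeq2, with 1 at an unadjusted p under 0.05. Hsph1 was higher by 6.80 and 6.79 on the log2 scale, and Hspa1a and Hspa1b, near-identical copies whose reads may be split between them, by 7.14 and 7.06 and by 6.70 and 6.55. Dnajb1 was at 0.18 and 0.19 without a call. The summed level of the list was 398 to 558 CPM in WT BM neutrophils, 967 to 1370 CPM in PyMT TANs, and 908 to 1340 CPM in those of PyMT-Cxcr2-/- mice. The part of the digestion in the levels of the members was not tested.

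Markers of other cell types also differed between the tissues. All 10 macrophage markers were higher in both TAN groups, with a summed level of 227 to 326 CPM in WT BM neutrophils, 3100 to 6760 CPM in PyMT TANs, and 3190 to 6310 CPM in those of PyMT-Cxcr2-/- mice, although the sort excluded F4/80+ cells. Of 9 epithelial markers, 8 were tested against WT BM neutrophils and higher in both TAN groups, with sums of 0.342 to 0.686 CPM, 53.0 to 480 CPM and 92.7 to 347 CPM. Neutrophil markers summed to 74900 to 98000 CPM in WT BM neutrophils, 11100 to 17200 CPM in PyMT TANs, and 18100 to 29300 CPM in those of PyMT-Cxcr2-/- mice, and 8 and 9 of 10 were lower in the TAN groups. In bulk libraries, fewer cells of a type and less RNA per cell cannot be told apart. Within PyMT TANs, the macrophage sums of replicates 1 to 4 were 3100, 6650, 6760 and 4250 CPM, and the sums of the 10 members were 11100, 10400, 10700 and 8280 CPM. Between the TAN groups 0 of 10 macrophage and 0 of 9 epithelial markers were called by edgeR or DESeq2, and 0 had an unadjusted p under 0.05. Of 10 neutrophil markers, edgeR called 6 higher in PyMT-Cxcr2-/- TANs and 1, Cxcr2, lower, and 9 had an unadjusted p under 0.05. Marker sums of fibroblasts (up to 40.4 CPM), endothelial cells (up to 35.6 CPM) and B cells (up to 19.1 CPM) were low in all 12 libraries, and T cell markers summed to 209 to 244 CPM in WT BM neutrophils and 14.6 to 43.9 CPM in TANs. Nearly all of the T cell sum in bone marrow was Cd3d (206 to 240 CPM), while Cd4 was higher in both TAN groups (means of 7.14 and 2.25 CPM, against 0.212 CPM in bone marrow). The part of other cells in the differences of the members was not tested.

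**Figure D4:**
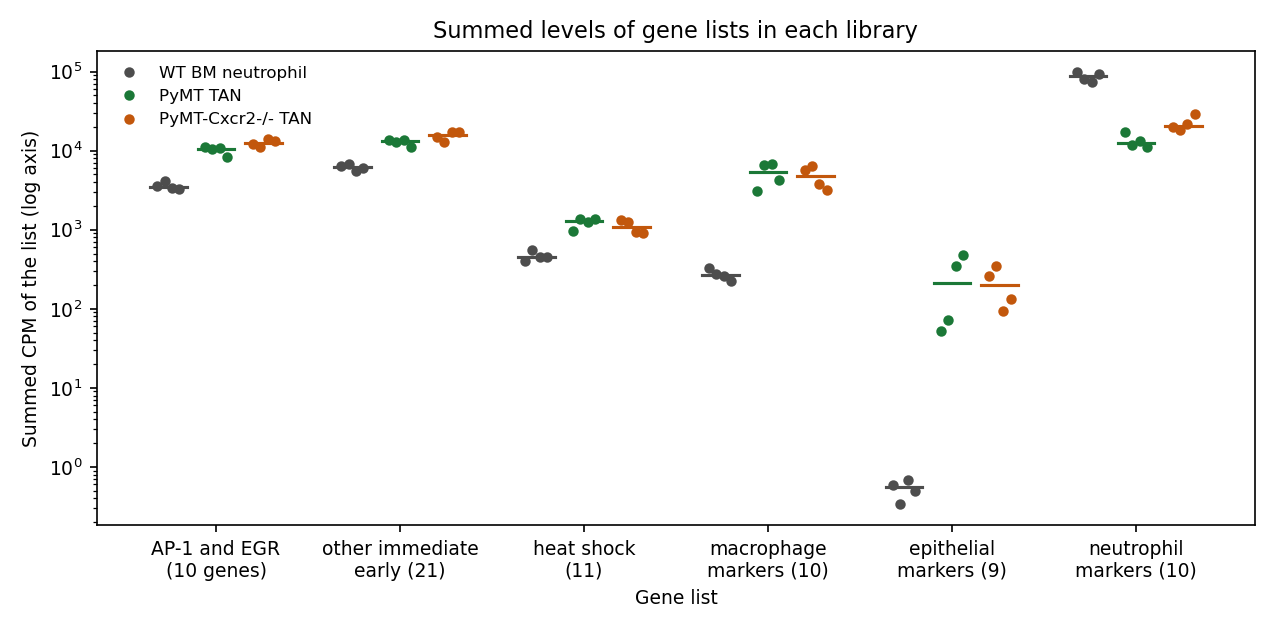
Summed CPM (log axis) of 6 gene lists in each of the 12 libraries, with points for libraries and bars for group medians. The sum of the 10 members is 3300 to 4160 CPM in WT BM neutrophils, 8280 to 11100 CPM in PyMT TANs, and 11100 to 13900 CPM in those of PyMT-Cxcr2-/- mice, while the macrophage, epithelial and heat shock sums are also higher in TANs.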

How the data were processed

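Sorted neutrophils of 12 mice were profiled by RNA-seq in 3 groups of 4 libraries. The authors depleted ribosomal RNA, made directional libraries, trimmed the paired-end reads, used STAR for alignment to mm10 and obtained counts of reads per gene from HTSeq. These raw counts were deposited and carry no normalization. HTSeq assigned 32.0% to 42.4% of WT BM neutrophil libraries to no feature, 39.9% to 52.5% of PyMT TAN and 45.6% to 48.7% of PyMT-Cxcr2-/- TAN libraries. This class stayed out of library sizes. Of 55335 identifiers, 55154 matched GENCODE M21, and 181 did not.

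The counts were analyzed with edgeR 4.0.16 in R 4.3.3, each pair of groups alone, with TMM factors, filterByExpr at its defaults, robust estimation and the quasi-likelihood test, which also gave the calls for list genes. Calls needed an adjusted p under 0.05 and a change of at least 1.5-fold. SE is the log2 fold change divided by the square root of F, and 95% intervals use its degrees of freedom. The procedure was tested on data simulated from the libraries of both TAN groups, and no simulation covered the comparisons with WT BM neutrophils.

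The members, the gene lists and the tests were chosen with earlier results of these data known. The genes named are all 10 members, all leucine zipper and EGR relatives, the first 4 genes of each other list, and the 5 genes most like the members over 12 libraries and within 8 TAN libraries. Of these, 2 genes are not reported here. The alternatives were RLE and upper-quartile factors, other count filters, DESeq2 1.42.0, 12 libraries in one fit, no robust estimation, no fold limit, offsets for GC content and length (known for 99.9% of genes), the replicate number as a block and each library left out. Their use for list genes was chosen after seeing the data. Promoter sequences are from RefSeq on GRCm38.p6.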

Additional observations from a re-analysis of the deposited data

Results flagged for a closer look

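Fosl2 in PyMT TAN replicate 1 was at 3080 CPM, apart from the other 3 libraries of its group (2390 to 2450 CPM), with a gap of 0.906 of the range of the group, above the limit of Dixon's test at 95%. By chance about 1 in 20 groups of this size would show such a gap. Without that library the log2 difference of Fosl2 from WT BM neutrophils stayed called, within a range of 1.05 to 1.17 over the fits that leave out 1 library.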

How the results depend on the processing

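For the 8 tested members, 150 of 152 alternative fits gave the same direction and call in each of the 3 comparisons. The median log2 difference of the members from WT BM neutrophils was 2.09 in PyMT TANs without a count filter, where 9 members were tested and the median of all genes was 0.52. With offsets for GC content and length it was 1.99 in PyMT TANs and 1.72 in PyMT-Cxcr2-/- TANs, and the medians of all genes moved from 0.09 to -0.15 and -0.4, while the genes called were 4432 higher and 5255 lower (5160 and 3988 without offsets) and 4794 and 7305 (6104 and 4444). Under these offsets Fosl2 in PyMT TANs (0.55) and Fos in PyMT-Cxcr2-/- TANs (0.27, adjusted p = 0.11) were no longer called. Leaving out each library gave medians of 2.33 to 2.61, 2.36 to 2.57 and, between the TAN groups, -0.09 to 0.15, with 7, 8 and 0 members called throughout. Atf3 between the TAN groups was at 0.06 without PyMT TAN replicate 2 and 0.00 without PyMT-Cxcr2-/- TAN replicate 4.

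Same-numbered libraries come from different animals and did not deviate together (correlations of -0.208 to 0.087). The labels do not say whether a number marks a shared day or batch. These correlations could miss a batch that moved only some genes, so they do not settle the pairing. With the replicate number as a block, 7, 8 and 0 members were called and the medians were 2.47, 2.5 and 0.12. Genes called between the TAN groups went from 255 higher and 110 lower to 4 and 9. With the block and the offsets together the medians were 2 and 1.75 against WT BM neutrophils, with Fosl2 at 0.53 in PyMT TANs and Fos at 0.27 in PyMT-Cxcr2-/- TANs. The block changed no other call of a member. Of the related genes, Fosl1 (adjusted p = 0.16), Mapk3 (0.19), Tnf (0.13) and Icam1 (0.11) were not called between the TAN groups with the block.

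Of the related genes named, 21 were called in each comparison with WT BM neutrophils, and 18 of these kept direction and call under every alternative run. Jdp2, Batf and Ier2 in PyMT TANs and Fosl1, Zfp36 and Tnf in PyMT-Cxcr2-/- TANs lost their call in some fits, as did all 4 genes called between the TAN groups. Some genes without a call gained one. Both offset fits called Ier2 (-0.84 and -0.87) and Plaur (-0.62 and -0.65) lower in PyMT-Cxcr2-/- TANs, Srf (-0.83 and -0.84) in PyMT TANs, and Atf4 and Atf7 in both TAN groups. Atf4 was also called lower without PyMT TAN replicate 1, without PyMT-Cxcr2-/- TAN replicate 4 and, in PyMT-Cxcr2-/- TANs, with 12 libraries in one fit. Mafk in PyMT-Cxcr2-/- TANs was called higher in 3 of the fits without 1 library and with a filter of 1 CPM. Genes that were not called turned direction as follows. With the offsets, and with the offsets and the block, Atf2 was at -0.18 and -0.19 in PyMT TANs and -0.34 and -0.34 in PyMT-Cxcr2-/- TANs. Mafk was at -0.24 and -0.24, then -0.19 and -0.18, and Dnajb1 at -0.18 and -0.19, then -0.41 and -0.40. In PyMT-Cxcr2-/- TANs, Srf was at -0.57 and -0.59, Elk3 at -0.50 and -0.50 and Elk4 at -0.55 and -0.56. Elk4 in PyMT TANs was at -0.44 and -0.49, at -0.06 with RLE factors, without a filter and with DESeq2, at -0.05 with 12 libraries in one fit, at -0.03 with the block, and between -0.13 and 0.16 in fits without 1 library. With 12 libraries in one fit Elk3 was at -0.05 and Elk4 at -0.02 in PyMT-Cxcr2-/- TANs. Plaur there was between -0.17 and 0.05 in fits without 1 library. The cause of these moves was not tested.

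Levels depend on the scaling, with a mean Fos level of 1680 CPM in PyMT TANs and 1030 CPM in WT BM neutrophils from library totals alone, against 1410 and 1240 CPM with TMM factors.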

Other observations

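The genes whose log2 CPM followed the mean of the 8 tested members most closely over the 12 libraries, among 5551 genes whose mean log2 CPM was 4 or more, were Csrnp1 (Pearson r = 0.996), Ddit4 (0.995), Traf1 (0.994), Nr4a1 (0.994) and Il10ra (0.994). These values describe the difference between tissues, which all libraries share, and 629 genes had an r over 0.9. Within the 8 TAN libraries, after each group mean was subtracted, they included Zbtb21 (0.982), Mbp (0.974), Socs3 (0.963) and Zc3h18 (0.963), and 99 genes had an r over 0.9. With 8 points and a search over 5551 genes, these are descriptions and were not tested. In that within-group mean, PyMT TAN replicate 4 was at -0.28 and PyMT-Cxcr2-/- TAN replicate 2 at -0.15 on the log2 scale, and the other 6 TAN libraries lay between 0.02 and 0.11.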
